A study of Mus musculus with 45 samples.

Results

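The comparison asks what IFN-γ did to macrophages that also received IL-4: cells given both cytokines for 4 h were set against cells given IL-4 alone for 4 h. It used 6 of the 45 samples of the series, 3 combination libraries and 3 IL-4 libraries, chosen by their labels and paired by replicate number. The table held 21 libraries, and a gene was tested if it reached at least 1 CPM (the reads of a gene after scaling to library size) in at least 3 of them, which left 11380 of 24421 genes. The combination group received 100 ng/ml IFN-γ with 10 ng/ml IL-4, and the IL-4 group received 10 ng/ml IL-4. Set beside them were 3 libraries each of cells given IFN-γ alone (100 ng/ml, 4 h) and of the same combination for 2 h. There were also 3 each of cells given IL-4 for 2 h and of untreated cells, listed at 0 h. The fit over all 21 libraries took in 3 more, of cells given IFN-γ alone (100 ng/ml) for 2 h. All were primary macrophages of C57BL/6 mice, grown from bone marrow in medium with L929 supernatant and used on day 7, and the RNA was poly(A)-selected. The labels name no separate animals or cultures behind the replicates, so p-values cover the spread among these libraries, which could be technical. Values of single libraries are given in the order of replicates 1, 2 and 3.

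IFN-γ is made by T cells and natural killer cells and acts through its receptor and JAK kinases, which lead to induction at gamma-activated sites (GAS elements) and of further factors such as IRF1. In macrophages it is the classical activating signal, known for chemokines that attract T cells, GTPases that attack pathogen vacuoles, and antigen presentation. IL-4 acts through its own receptor and STAT6 and drives the alternative activation program, with genes such as Arg1, Retnla and Mrc1, and both programs are known to restrain each other in part.

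The 6 libraries held 38047425 to 58499752 reads. The ribosomal precursor Rn45s took 3.21% of reads in combination replicate 3, 0.246% to 0.266% in the other combination libraries, and 0.173% to 0.475% in the IL-4 libraries. It reached 43.2% and 15.7% in untreated replicates 2 and 3, and values here are CPM rescaled by median ratios. The 8 macrophage markers (Csf1r, Adgre1, Itgam, Cd68, Fcgr1, Mertk, Lyz2 and Spi1) summed to 18726 to 27835 CPM in the combination libraries and 17119 to 27953 CPM in the IL-4 libraries, and 2 of the 8, Fcgr1 and Spi1, were called higher. Markers of natural killer cells, B cells, erythroid cells, mast cells with basophils and eosinophils summed to under 2 CPM in each of the 6 libraries. Fibroblast markers summed to 12.0 to 12.7 CPM in the combination and 7.92 to 12.7 CPM under IL-4, and dendritic cell markers to 2.68 to 5.12 and 1.81 to 3.84 CPM. T cell markers summed to 19.0 to 30.8 CPM in the combination and 3.07 to 16.6 CPM under IL-4, and endothelial markers to 7.85 to 13.4 and 12.9 to 18.7 CPM. Of 5 neutrophil markers tested, S100a8, S100a9 and Camp were called higher by 0.47, 0.44 and 0.50 on the log2 scale. Mpo (-0.18) and Elane (0.25) did not pass the test. The 5 summed to 57.6 to 196 CPM in the combination libraries and 44.8 to 141 CPM in the IL-4 libraries. The part of cells other than macrophages in the results was not tested.

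Adding IFN-γ moved more of the transcriptome down than up in number of genes, and more genes rose than fell by log2 1 or more, a split that turned on the values as deposited. Of 11380 genes, 2946 were called higher (25.9%) and 3431 lower (30.1%) in the combination, 56% in all (limma with the replicate number as a block, Benjamini-Hochberg adjusted p under 0.05). A log2 change of at least 1 was reached by 862 genes upward (7.57%) and 354 downward (3.11%), a log2 change of at least 2 by 276 upward and 38 downward, and a log2 change of at least 4 by 37 upward and 1, Retnla, downward. The median over all genes was -0.04. Of the 6377 called genes, 6332 had the same sign in all 3 pairs, and the libraries of both groups did not overlap in 2186 of those called higher and 2323 of those called lower. Over all 11380 genes, called or not, there was no overlap in 2352 upward (20.7%) and 2532 downward (22.2%). The split between rises and falls rests on the scaling: on the values as deposited, the median of all genes was -0.27 and the calls were 1317 higher and 3636 lower, 653 and 686 of them by log2 1 or more. Without the replicate block, 1788 genes were called higher and 1732 lower. Log2 changes are on log2(CPM + 1), given with the standard error of the fit, and understate the change of genes with few reads.

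The largest rises were in chemokines of T cell recruitment and in interferon-induced GTPases. Cxcl9, a ligand of CXCR3 on activated T cells (chromosome 5, 92321347 to 92328079, GRCm38), had 3099.5, 833 and 1999 CPM in the combination libraries, against 7.47, 1.69 and 4.82 CPM in the IL-4 libraries. The combination libraries stood far above the IL-4 libraries, and replicate 2 was the lowest in both groups (log2 change 8.40 ± 0.32, adjusted p = 1.8e-12). Cxcl10, the second CXCR3 ligand (chromosome 5, 92346638 to 92348889), had 2771, 2229 and 1684 CPM in the combination libraries, against 6.16, 5.89 and 7.46 CPM in the IL-4 libraries, with no overlap (log2 change 8.19 ± 0.25, adjusted p = 1.7e-13). Gbp2, a guanylate-binding protein that coats pathogen vacuoles (chromosome 3, 142620602 to 142638008), had 9568, 4065 and 8253 CPM in the combination libraries, against 71.8, 40.9 and 40.9 CPM in the IL-4 libraries. It was the most abundant of these genes in the combination in CPM, again lowest in replicate 2 (log2 change 7.09 ± 0.31, adjusted p = 1.3e-11). Iigp1, an immunity-related GTPase that acts on parasite vacuoles (chromosome 18, 60376027 to 60392634), had 4066, 2222 and 3684 CPM in the combination libraries, against 15.5, 15.5 and 11.2 CPM in the IL-4 libraries (log2 change 7.75 ± 0.27, adjusted p = 7.2e-13). Irg1, which encodes the enzyme that makes itaconate (chromosome 14, 103046977 to 103056573), had 372, 369 and 194 CPM in the combination libraries, against 3.71, 3.61 and 5.63 CPM in the IL-4 libraries (log2 change 5.84 ± 0.33, adjusted p = 2.2e-10). All 3 combination libraries of each of these 5 genes stood above all 3 IL-4 libraries, which the choice of the 15 largest rises required. Sectm1a was close to absent under IL-4, with 114, 96.6 and 100.1 CPM in the combination libraries, against 0.164, 0.311 and 0.236 CPM in the IL-4 libraries, and the log2 change was 6.40 ± 0.12. The rest of the 15 largest rises were Gbp4, Gbp6, Tgtp1, Serpina3f, Cnn3, Ifi205, Fam26f, Gbp5 and Tgtp2, at log2 changes of 5.60 to 6.43. Reads of the Gbp, Tgtp, Serpina3, Ifi and H2 genes can be split among near-identical copies, so the values of a single member are uncertain.

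**Figure D1:**
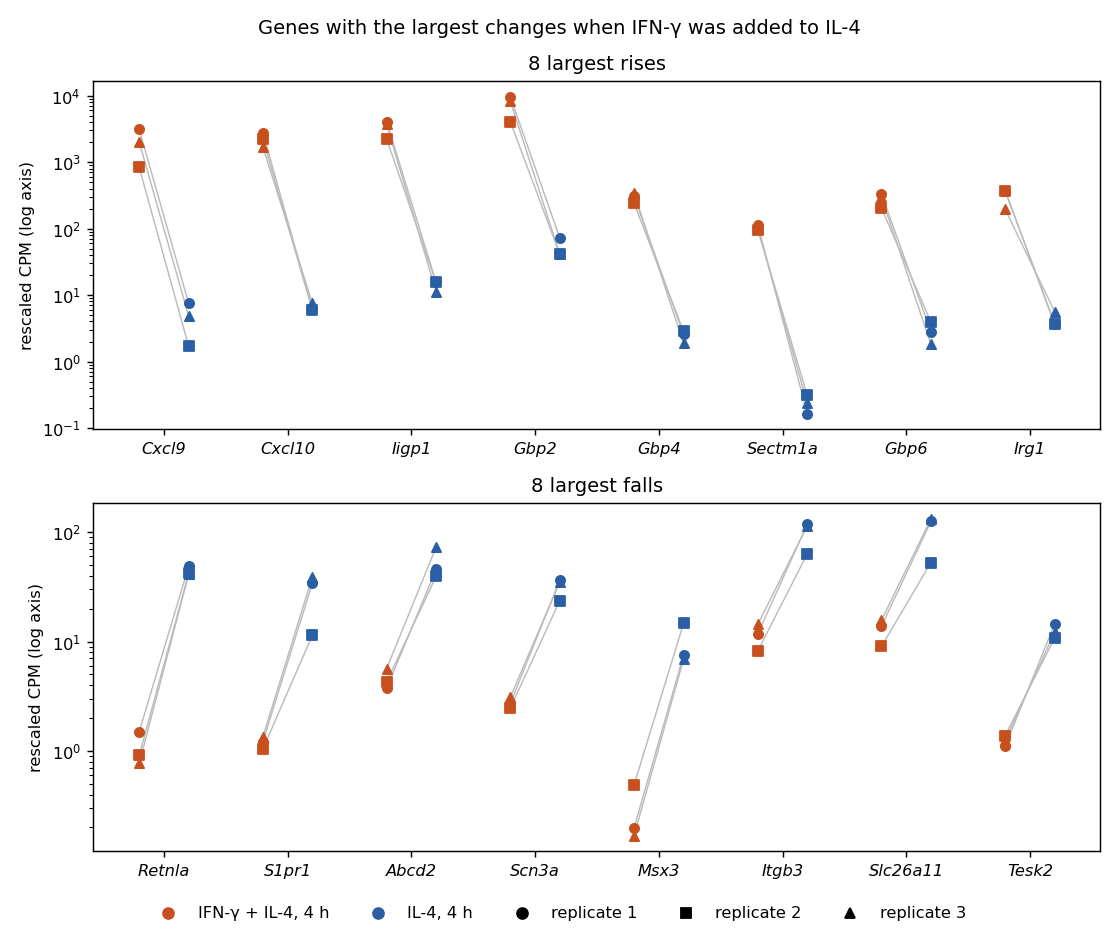
Rescaled CPM on a log axis in each of the 3 combination libraries (left, orange) and 3 IL-4 libraries (right, blue) for the 8 largest rises (top) and 8 largest falls (bottom); lines join libraries of the same replicate number. The choice of these 16 genes required that the groups not overlap and that the 3 pairs run the same way.

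Promoters of 3 of the genes with the largest changes held an element that IRF or STAT6 complexes are known to bind, and these are shown with that element in capitals, with Cxcl9 beside them as the largest rise. The windows run from 250 bases before to 50 after the start in RefSeq (GRCm38.p6), at chr5:92328030-92328329 (minus strand), chr5:92348840-92349139 (minus strand), chr3:142620413-142620712 (plus strand) and chr16:48842359-48842658 (plus strand), each printed on the gene's own strand.
Cxcl9: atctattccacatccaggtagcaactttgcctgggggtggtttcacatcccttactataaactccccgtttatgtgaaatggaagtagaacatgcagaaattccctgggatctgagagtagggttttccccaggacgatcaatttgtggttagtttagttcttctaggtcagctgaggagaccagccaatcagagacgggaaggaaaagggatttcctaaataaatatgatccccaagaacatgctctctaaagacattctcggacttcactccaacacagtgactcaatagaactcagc
Cxcl10: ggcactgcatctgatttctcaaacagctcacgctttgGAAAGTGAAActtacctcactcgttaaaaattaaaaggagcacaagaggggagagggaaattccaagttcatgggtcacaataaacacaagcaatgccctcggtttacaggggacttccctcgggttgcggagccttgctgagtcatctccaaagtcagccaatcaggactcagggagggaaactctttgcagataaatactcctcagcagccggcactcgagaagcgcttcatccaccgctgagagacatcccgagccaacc
Gbp2: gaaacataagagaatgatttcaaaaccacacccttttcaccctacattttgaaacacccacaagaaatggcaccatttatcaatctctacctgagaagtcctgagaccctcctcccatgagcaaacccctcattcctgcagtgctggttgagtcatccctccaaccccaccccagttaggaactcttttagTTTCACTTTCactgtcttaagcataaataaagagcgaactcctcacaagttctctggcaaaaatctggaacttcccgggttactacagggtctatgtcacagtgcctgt
Retnla: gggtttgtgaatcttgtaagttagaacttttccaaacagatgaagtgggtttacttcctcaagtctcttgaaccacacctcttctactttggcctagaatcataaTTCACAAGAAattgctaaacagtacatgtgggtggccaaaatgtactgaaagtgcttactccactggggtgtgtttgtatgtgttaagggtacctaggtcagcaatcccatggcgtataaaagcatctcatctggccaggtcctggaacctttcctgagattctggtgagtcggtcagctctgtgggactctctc
In Cxcl10 the capitals mark GAAA and GAAA with 2 bases between them, the core of an interferon-stimulated response element, with its first base at position -213 from the start. In Gbp2 they mark the same pattern on the other strand, at position -59 from the RefSeq start. The GENCODE gene given above begins further upstream, so the element lies within its first bases. In Retnla, the gene with the largest fall, they mark TTC and GAA with 4 bases between them, the spacing that STAT6 is known to prefer, at position -145. The Cxcl9 window held none of the 3 patterns searched on both strands, which were the GAAA pair, the TTC and GAA pair with 4 bases between (STAT6 spacing) and the TTC and GAA pair with 3 bases between (GAS spacing), and neither did those of Irg1 and Msx3. A window can hold more than 1 of these patterns, and matches of different patterns may overlap. Of the 11380 genes tested, 9185 had a promoter entry. The GAAA pair stood in 3.36% of their windows, in 13.2% of 688 windows of genes called higher by log2 1 or more, in 1.83% of 273 windows of genes called lower by as much, and in 14 of 25 windows (56%) of genes higher by log2 4 or more. The GAS spacing stood in 7.03% of all tested genes' windows, in 11.2% of those of the higher genes, in 4.03% of those of the lower genes and in 10 of the same 25 (40%). For the STAT6 spacing the shares were 5.5% of all tested genes' windows, 6.54% of the higher genes', 8.79% of the lower genes' and 4 of the same 25 (16%). Over all 32851 windows of the table the shares were 3.44% for the GAAA pair, 8.3% for the GAS spacing and 6.95% for the STAT6 spacing. A match describes the letters of a window and not a bound site.

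The largest fall was that of Retnla, a secreted hallmark of alternative activation (chromosome 16, 48842551 to 48844461). It had 1.499, 0.911 and 0.7701 CPM in the combination libraries, against 48.8, 41.9 and 41.3 CPM in the IL-4 libraries. The groups were apart by a factor of 41.5 in the mean (log2 change -4.46 ± 0.09, adjusted p = 1.6e-15). S1pr1, the receptor for sphingosine 1-phosphate (chromosome 3, 115710433 to 115715072), had 1.22, 1.05 and 1.35 CPM in the combination libraries, against 34.2, 11.4 and 39.1 CPM in the IL-4 libraries (log2 change -3.56 ± 0.28, adjusted p = 1.5e-08). Abcd2, a peroxisomal transporter of very long chain fatty acids (chromosome 15, 91145871 to 91191799), had 3.73, 4.28 and 5.66 CPM in the combination libraries, against 45.7, 39.5 and 72.9 CPM in the IL-4 libraries (log2 change -3.24 ± 0.17, adjusted p = 1.3e-10). The libraries of both groups did not overlap in any of these genes, which the choice of the 15 largest falls required. Itgb3, the β3 integrin subunit (chromosome 11, 104608000 to 104670476), had 11.8, 8.196 and 14.3 CPM in the combination libraries, against 117, 63.2 and 114 CPM in the IL-4 libraries (log2 change -2.97 ± 0.17, adjusted p = 3.4e-10). Scn3a, a sodium channel subunit, fell by 3.10, and Msx3, a homeobox gene, fell by 2.99 on the log2 scale with a pseudocount of 1 and by 4.67 with a pseudocount of 0.1. The other 9 of the 15 largest falls were Slc26a11, Tesk2, Slco2b1, Ypel2, Gprc5c, Rasgrp3, Sla, Tcp11l2 and the proton-sensing receptor Gpr65, at -2.84 to -2.27.

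Among receptors, JAKs and STATs, 14 of 21 rose and 3 fell (1 without the replicate block), and the list median was 0.52. The IFN-γ receptor chain Ifngr1 had 63.96, 35.9 and 54.7 CPM in the combination libraries, against 134, 86.6 and 128 CPM in the IL-4 libraries. It fell in all 3 pairs (log2 change -1.17 ± 0.08, adjusted p = 2.1e-09), while Ifngr2 did not pass the test (-0.12 ± 0.07, adjusted p = 0.2). The IL-4 receptor chain Il4ra had 2463, 1790.1 and 1917 CPM in the combination libraries, against 1096, 1247 and 987 CPM in the IL-4 libraries and rose (log2 change 0.88 ± 0.18, adjusted p = 3.9e-04). Among the others that rose were Il10ra (2.58 ± 0.12), Il13ra1 (1.55 ± 0.12), Stat3 (1.73 ± 0.11), Stat2 (1.41 ± 0.19) and Jak3 (1.46 ± 0.12). Stat6, the transducer of IL-4, had 189, 147 and 184 CPM in the combination libraries, against 208, 162 and 191 CPM in the IL-4 libraries and did not pass the test (-0.11 ± 0.07, adjusted p = 0.21).

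The feedback inhibitors of JAK signalling divided: 9 of 14 rose and 3 fell. Socs1, which blocks JAK kinases downstream of both receptors, had 256, 306 and 209 CPM in the combination libraries, against 42.5, 66.9 and 55.6 CPM in the IL-4 libraries. Every combination library was the higher member of its pair (log2 change 2.21 ± 0.19, adjusted p = 3.7e-08), although IL-4 alone had already brought the gene to 55.00 ± 12.2 CPM against 0.884 ± 0.398 CPM in untreated cells (SD, n = 3 each). Socs3, the inhibitor best known from IL-6 signalling, had 279, 117 and 151 CPM in the combination libraries, against 8.49, 4.28 and 11.5 CPM in the IL-4 libraries (log2 change 4.32 ± 0.27, adjusted p = 7.1e-10). Cish and Usp18 also rose, by 1.03 ± 0.20 and 2.64 ± 0.30, and so did the phosphatases Ptpn2 (1.24 ± 0.10) and Ptpn6 (1.16 ± 0.07). Socs2 went the other way, with 14.7, 6.81 and 9.46 CPM in the combination libraries, against 50.2, 42.8 and 39.8 CPM in the IL-4 libraries (log2 change -2.05 ± 0.13, adjusted p = 9.6e-10), and Socs5 fell too (-0.88 ± 0.10).

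Of the interferon regulatory factors, 7 of 8 rose. Irf1, an early target of IFN-γ (chromosome 11, 53770014 to 53778374), had 2793, 2076 and 2406 CPM in the combination libraries, against 216, 136 and 199 CPM in the IL-4 libraries. The spread within each group was small beside the gap (log2 change 3.73 ± 0.11, adjusted p = 8.5e-14). Irf8 (2.61 ± 0.09), Irf7 (2.21 ± 0.17), Irf2 (1.39 ± 0.11) and Irf5 (1.09 ± 0.07) rose with it. Irf4, the factor that IL-4 induces, had 154, 65.4 and 126 CPM in the combination libraries, against 73.4, 46.7 and 80.04 CPM in the IL-4 libraries, and the groups overlapped (log2 change 0.73 ± 0.17, adjusted p = 0.0017). Its call was lost without the replicate block and on values as deposited. Irf3 did not pass the test (-0.05 ± 0.08). AP-1, BATF and C/EBP factors rose in 13 of 16 members. The largest was Batf2, a partner of IRF1 in classical activation, with 312, 180.00 and 225 CPM in the combination libraries, against 5.08, 5.18 and 3.88 CPM in the IL-4 libraries (log2 change 5.36 ± 0.27, adjusted p = 7.5e-11). Jun (2.78 ± 0.20), Atf3 (2.30 ± 0.15), Batf3 (2.27 ± 0.16), Cebpb (1.91 ± 0.25) and Junb (1.78 ± 0.27) also rose, whereas Fos, Cebpd and Nfil3 did not pass the test. Of NF-κB subunits and inhibitors, 13 of 15 rose, led by the inhibitors Tnfaip3 (2.57 ± 0.19), Nfkbie (2.03 ± 0.19) and Bcl3 (1.88 ± 0.15); Rela and Tnip1 did not pass the test. On values as deposited the NF-κB count was 8 higher and 1 lower, and without the replicate block it was 4 higher.

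Chemokine and cytokine genes rose in part. Of 18 chemokines, 9 rose and 3 fell. Beside Cxcl9 and Cxcl10, the third CXCR3 ligand Cxcl11 had 11.9, 9.95 and 7.22 CPM in the combination libraries, against 0.128, 0.259 and 0.256 CPM in the IL-4 libraries, which is 45.2-fold in the means (log2 change 3.11 ± 0.27, adjusted p = 4.1e-08). The monocyte attractants Ccl8 (2.91 ± 0.25) and Ccl12 (2.62 ± 0.36) rose, and so did Ccl24, a ligand of CCR3 on eosinophils. Ccl3, which encodes MIP-1α, had 8.68, 3.59 and 3.899 CPM in the combination libraries, against 38.1, 19.3 and 25.2 CPM in the IL-4 libraries and fell (log2 change -2.19 ± 0.32, adjusted p = 2.0e-05), whereas its neighbour Ccl4 (-0.24 ± 0.38) and Ccl5 (0.64 ± 0.32) did not pass the test. Ccl6 and Ccl9 fell as well (-0.51 ± 0.08 and -1.001 ± 0.11), but not without the replicate block. Of 19 cytokines and growth factors, 12 rose and 2 fell. Tnf had 57.2, 20.5 and 28.2 CPM in the combination libraries, against 2.47, 0.984 and 2.44 CPM in the IL-4 libraries. It rose in every pair (log2 change 3.53 ± 0.31, adjusted p = 4.1e-08). The death ligand Tnfsf10 (4.42 ± 0.23), Il15 (2.57 ± 0.14), Csf1 (2.48 ± 0.16) and the IL-1 antagonist Il1rn (2.13 ± 0.18) also rose. Il16 fell (-1.71 ± 0.19), and Il1b stayed under 1 CPM on average in both groups (-0.20 ± 0.36, not called). Igf1, a growth factor of alternatively activated macrophages, was lower at -0.85 ± 0.10, a call lost without the replicate block.

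Interferon-induced defence genes moved nearly as blocks. All 18 interferon-inducible GTPases tested, Gbp genes and immunity-related ones, rose, by 1.45 to 7.75 on the log2 scale, and the list median was 4.67. Gbp4 had 304, 239.9 and 345 CPM in the combination libraries, against 2.56, 2.85 and 1.87 CPM in the IL-4 libraries, and Gbp5 had 1424, 682 and 1126 CPM in the combination libraries, against 28.8, 13.4 and 21.6 CPM in the IL-4 libraries. In 17 of the 18, replicate 2 was the lowest combination library. All 34 genes classically induced by type I interferon rose as well, by 0.24 to 5.62, and the list median was 2.31. Ifit2, which binds viral RNA, had 1000.2, 1698 and 748 CPM in the combination libraries, against 73.6, 155 and 32.9 CPM in the IL-4 libraries (log2 change 3.88 ± 0.25, adjusted p = 8.4e-10). The nucleic acid sensor Zbp1 (3.68 ± 0.31), Herc6 (3.30 ± 0.17), Ifit1 (3.15 ± 0.24) and Isg15 (3.04 ± 0.23) rose by similar amounts. In this list replicate 3 was the lowest library in 26 of 34 genes in the combination and in 31 of 34 under IL-4. On values as deposited the calls were 33 of 34, and without the replicate block 32.

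Antigen presentation genes rose in both MHC classes. All 19 genes of MHC class I and antigen processing rose, by 0.19 to 3.54, and the list median was 1.74. The peptide transporter Tap1 had 834, 694 and 767 CPM in the combination libraries, against 53.7, 100.2 and 51.7 CPM in the IL-4 libraries (log2 change 3.53 ± 0.28, adjusted p = 1.5e-08). Nlrc5, the transactivator of class I genes, had 493, 338 and 411 CPM in the combination libraries, against 32.8, 56.6 and 21.7 CPM in the IL-4 libraries (log2 change 3.54 ± 0.28, adjusted p = 1.5e-08). H2-T24, H2-T23, Tap2 and the immunoproteasome subunit Psmb9 rose by 2.19 to 2.58. Of 9 class II genes, 8 rose, and the list median was 0.55. Ciita, their master transactivator, had 73.3, 30.8 and 63.6 CPM in the combination libraries, against 12.5, 4.06 and 9.23 CPM in the IL-4 libraries, with no overlap (log2 change 2.59 ± 0.11, adjusted p = 1.4e-11). Of the class II chains, H2-DMa rose by 1.40 ± 0.07, and the others tested moved by less at 4 h. H2-Ab1 had 83.4, 33.9 and 42.7 CPM in the combination libraries, against 52.1, 19.2 and 31.4 CPM in the IL-4 libraries, and the groups overlapped (log2 change 0.63 ± 0.16, adjusted p = 0.0026). H2-Aa (0.39 ± 0.12), H2-Eb1 (0.55 ± 0.14) and the invariant chain Cd74 (0.61 ± 0.12) were like it. The class II count was 2 on values as deposited, 2 without the replicate block and 5 without replicate 1, and the calls of H2-Ab1, H2-Aa, H2-Eb1 and Cd74 were lost on values as deposited and without the replicate block, that of H2-Aa also without replicate 1 or without IL-4 replicate 1.

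Of 25 genes of classical activation, 22 rose and 1, the costimulator Cd80, fell (-0.77 ± 0.16); the list median was 2.57. Nos2, the inducible nitric oxide synthase, had 6.76, 4.98 and 3.68 CPM in the combination libraries, against 0.219, 0.173 and 0.158 CPM in the IL-4 libraries. The means differed 28.1-fold, and each IL-4 library was under 1 CPM (log2 change 2.35 ± 0.21, adjusted p = 7.9e-08; log2 change 4.17 with a pseudocount of 0.1). Ptgs2, the inducible cyclooxygenase, had 75.8, 9.22 and 16.4 CPM in the combination libraries, against 1.95, 0.155 and 1.02 CPM in the IL-4 libraries (log2 change 3.65 ± 0.39, adjusted p = 5.7e-07). Fcgr1 (2.67 ± 0.18), a high-affinity Fc receptor, Gpr18 (4.06 ± 0.28) and Cd40 (2.22 ± 0.19) rose too. Il12a, Il12b, Il6, Marco and Ido1 did not reach the CPM minimum.

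Costimulatory and inhibitory ligands changed in both directions, 7 of 13 up and 5 down (3 without the replicate block), beside 25.9% and 30.1% of all genes. The checkpoint ligand Cd274, PD-L1, had 1619, 1016 and 1235 CPM in the combination libraries, against 158, 149 and 103 CPM in the IL-4 libraries (log2 change 3.22 ± 0.22, adjusted p = 1.7e-09). Its relative Pdcd1lg2, PD-L2, which IL-4 induces, had 268, 195 and 198 CPM in the combination libraries, against 96.9, 73.1 and 72.8 CPM in the IL-4 libraries and rose as well (log2 change 1.43 ± 0.21, adjusted p = 2.1e-05). Icosl (1.71 ± 0.25) and Lgals9 (1.10 ± 0.12) rose, while Cd200r1, an inhibitory receptor of myeloid cells, fell (-1.62 ± 0.12), as did Cd48 (-0.74 ± 0.11).

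Sensors and surface receptors were mixed. Of 26 pattern recognition genes, 12 rose and 3 fell. The rises included sensors of nucleic acids and cell wall fragments, Tlr3 (3.11 ± 0.10), Nod1 (3.11 ± 0.14), Tmem173, which encodes STING (2.48 ± 0.14), and Ifih1 (1.83 ± 0.14), with the adaptor Myd88 (2.05 ± 0.10). Tlr8 had 175, 107 and 117 CPM in the combination libraries, against 405, 268 and 326 CPM in the IL-4 libraries and fell (log2 change -1.33 ± 0.12, adjusted p = 7.0e-08), and Tlr13, a sensor of bacterial ribosomal RNA, fell by a like amount (-1.36 ± 0.14). The falls in the list numbered 6 on values as deposited and 5 without combination replicate 2. Of 15 chemoattractant receptors, 5 rose (3 without the replicate block) and 5 fell. These counts were not far from the shares of all genes, 25.9% higher and 30.1% lower. The receptor for inflammatory chemokines Ccr1 (2.52 ± 0.17) and the decoy Ccrl2 (2.47 ± 0.29) rose. S1pr1, the oxysterol receptor Gpr183 (-1.60 ± 0.22), the complement receptor C5ar1 (-1.48 ± 0.17) and Cxcr3 (-1.41 ± 0.14) fell. Gpr183 had 14.9, 26.01 and 18.1 CPM in the combination libraries, against 62.2, 61.9 and 56.5 CPM in the IL-4 libraries. Ch25h, the enzyme that makes the precursor of its ligand, rose (3.30 ± 0.29). Scavenger, phagocytic and Fc receptors rose in 6 of 19 members and fell in 4 (2 without the replicate block), beside the same 25.9% and 30.1%. Fcgr4 had 1082, 887 and 866 CPM in the combination libraries, against 67.4, 112 and 52.9 CPM in the IL-4 libraries (log2 change 3.66 ± 0.24, adjusted p = 1.5e-09), and Fcgr3 rose by 1.06 ± 0.09, while the inhibitory Fcgr2b did not pass the test (-0.02 ± 0.18). In the same list the haemoglobin scavenger receptor Cd163 (-1.003 ± 0.16) and Cd300lb (-1.48 ± 0.22) fell, and the efferocytosis receptor Axl rose (1.12 ± 0.11).

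Genes of cell death rose in 19 of 24 members. They included both executioners and protectors: Casp4, the sensor of cytosolic lipopolysaccharide (3.43 ± 0.16), Mlkl, the effector of necroptosis (3.13 ± 0.24), Fas (2.49 ± 0.18) and Casp1 (1.78 ± 0.16), and the survival gene Bcl2l1 (2.12 ± 0.12). Casp4 had 271, 299.5 and 218 CPM in the combination libraries, against 21.8, 32.5 and 17.5 CPM in the IL-4 libraries. Bcl2 was the member that fell (-0.54 ± 0.11), a call lost without the replicate block.

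Among metabolic lists, glycolysis had mostly rises, cholesterol synthesis and lipid handling had more falls than rises, and the arginine and iron lists had counts in both directions not far from those of all genes (25.9% higher and 30.1% lower). Glycolysis rose in 14 of 20 members, and the list median was 0.51; on values as deposited, and also without the block, 8 rose. Pfkp, a phosphofructokinase, had 353, 329.5 and 272 CPM in the combination libraries, against 57.2, 111 and 52.4 CPM in the IL-4 libraries (log2 change 2.17 ± 0.23, adjusted p = 4.3e-07). The hexokinases Hk3 (1.93 ± 0.19), Hk1 (1.80 ± 0.10) and Hk2 (1.73 ± 0.27), the lactate exporter Slc16a3 (1.32 ± 0.11) and the regulator Hif1a (1.44 ± 0.11) rose, as did the enzymes Pkm, Tpi1, Pgam1, Gapdh and Ldha by 0.30 to 0.93, and the 6 members Gpi1, Pfkm, Aldoa, Pgk1, Eno1 and Eno2 did not pass the test. Cholesterol synthesis fell in 13 of 21 members, with 18 on values as deposited and a list median of -0.42; limma without the replicate block called 0, with 2 of the 21 lower at an unadjusted p under 0.05, while edgeR and DESeq2 with the block called 13 and 13 lower. Dhcr7, which catalyses the last step to cholesterol, had 17.99, 36.7 and 33.5 CPM in the combination libraries, against 38.7, 63.00 and 64.2 CPM in the IL-4 libraries (log2 change -0.92 ± 0.08, adjusted p = 9.2e-08). In lipid handling, 6 of 20 rose and 12 fell, 3 and 12 on values as deposited, and without the block 4 and 4. Ch25h and the vitamin D receptor Vdr (1.83 ± 0.20) rose; the cholesterol exporter Abca1 (-1.16 ± 0.19), the LDL receptor ligase Mylip (-1.44 ± 0.17) and Soat1, which stores cholesterol esters (-0.93 ± 0.07), fell. In arginine metabolism, where Nos2 and Arg1 compete for the substrate, 3 of 14 rose and 3 fell (5 on values as deposited or without combination replicate 3). Without the block, 2 rose and 1 fell. Gch1, which supplies the cofactor of nitric oxide synthase, rose (2.501 ± 0.18) and the arginine transporter Slc7a2 fell (-0.81 ± 0.14), the fall lost without the block. Of 15 iron genes, 5 rose and 6 fell (2 and 6 on values as deposited, 1 and 3 without the block), among them the iron exporter Slc40a1 (-1.25 ± 0.27) and haem oxygenase Hmox1 (-0.95 ± 0.15). For prostaglandins and leukotrienes the counts were 4 up and 6 down of 13, with the phospholipase Pla2g4a higher (2.04 ± 0.24) and the receptor Ptger2 lower (-0.78 ± 0.18); 2 rose with a minimum of 5 CPM and 2 fell without the block.

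**Figure D2:**
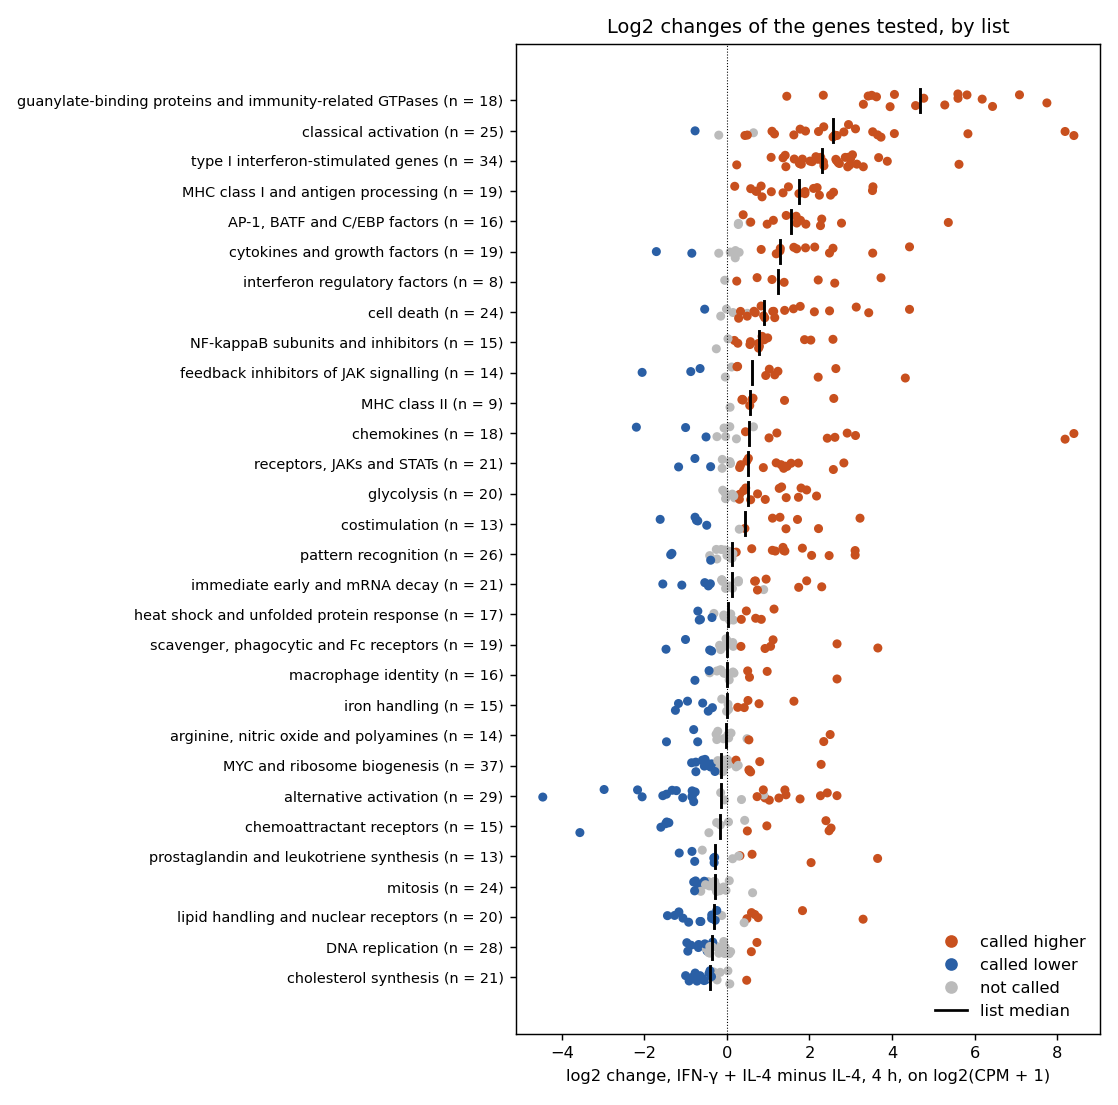
Log2 change between the combination and IL-4 at 4 h (x axis, log2(CPM + 1) scale) for each gene tested, in 30 lists ordered by median; points are genes, orange called higher, blue called lower, grey not called, and black bars are list medians. The guanylate-binding proteins and immunity-related GTPases stand furthest right with a median of 4.67, and cholesterol synthesis furthest left with -0.42.

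Lists of growth genes had shares of falls close to the 30.1% of all genes, and shares of rises below the 25.9% of all genes. DNA replication rose in 2 of 28 members and mitosis in 0 of 24, with list medians of -0.37 and -0.30. MYC did not pass the test: Myc had 40.2, 28.4 and 26.5 CPM in the combination libraries, against 40.5, 38.3 and 26.8 CPM in the IL-4 libraries (-0.15 ± 0.13, adjusted p = 0.33). Of 37 genes of MYC and ribosome biogenesis, 6 rose and 12 fell, 2 and 15 on values as deposited and 3 and 7 without the block. Dkc1 (-0.86 ± 0.15), Wdr12 (-0.75 ± 0.10) and Ncl (-0.59 ± 0.07) fell, and Noc4l rose (2.28 ± 0.12). DNA replication fell in 10 of 28 members (6 without replicate 3, without combination replicate 2 or without IL-4 replicate 3) and mitosis in 7 of 24 (2 without replicate 1, 4 without replicate 3, 3 without IL-4 replicate 1, 11 on values as deposited or with only the 6 libraries in the fit). The mitosis genes summed to 187, 1295 and 334 CPM in the combination libraries, against 210.2, 1731 and 505 CPM in the IL-4 libraries. Replicate 2 was several times above the others in both groups, and limma without the block called 0 falls in either list, with 0 genes of either lower at an unadjusted p under 0.05. With the block, edgeR called 11 and 7 falls and DESeq2 12 and 7, replication first. Of 16 genes of macrophage identity, 4 rose and 2 fell; Csf1r (-0.17 ± 0.10), Adgre1 (-0.14 ± 0.08) and Lyz2 (-0.02 ± 0.15) did not pass the test. These counts were 2 and 4 on values as deposited, and 4 fell without replicate 2 or without combination replicate 2. Without the block, 2 rose and 0 fell, with 1 gene lower at an unadjusted p under 0.05, while edgeR and DESeq2 with the block called 2 and 2 lower. Of 21 immediate early and mRNA decay genes 7 rose, with Klf6 (1.93 ± 0.12) and Zfp36 (1.74 ± 0.22), and 5 fell, with Dusp4 (-1.09 ± 0.13); the falls numbered 2 without replicate 1, replicate 3, combination replicate 1 or combination replicate 3, and 3 without any 1 of the IL-4 libraries or without the untreated libraries, and 2 with no filter on low values. Without the block, 4 rose and 2 fell. Heat shock and unfolded protein response genes gave 5 rises, led in level by the chaperone Hspa8 (0.83 ± 0.09), and 4 falls of 17, with 2 falls without replicate 3, 3 rises on values as deposited, and 1 rise and 1 fall without the block. The counts of the immediate early list and of this list were not far from the 25.9% and 30.1% of all genes.

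The genes of alternative activation did not move as a block: 11 of 29 rose, 14 fell (7 without the replicate block), and the list median was -0.15. Over all genes 25.9% were higher and 30.1% lower, so calls in both directions were common outside this list too. On the falling side, beside Retnla and Itgb3, Tmem26 had 21.4, 20.4 and 17.2 CPM in the combination libraries, against 90.9, 103 and 80.9 CPM in the IL-4 libraries (log2 change -2.16 ± 0.13, adjusted p = 5.8e-10). Klf4, a factor that acts with STAT6, had 12.5, 30.7 and 21.3 CPM in the combination libraries, against 49.8, 75.4 and 61.1 CPM in the IL-4 libraries (log2 change -1.55 ± 0.22, adjusted p = 1.6e-05). Arg1, the arginase that competes with nitric oxide synthase, had 10.2, 38.7 and 8.28 CPM in the combination libraries, against 25.9, 146 and 20.95 CPM in the IL-4 libraries. Each pair fell, but replicate 2 was far above the others in both groups, so the groups overlapped (log2 change -1.46 ± 0.40, adjusted p = 0.005), and the call was lost without the replicate block. On the rising side, Ccl24 had 707, 224 and 399.8 CPM in the combination libraries, against 102, 52.4 and 72.8 CPM in the IL-4 libraries, with no overlap (log2 change 2.43 ± 0.19, adjusted p = 1.4e-08). Tgm2, a transglutaminase, had 724, 936 and 554 CPM in the combination libraries, against 103, 169 and 82.3 CPM in the IL-4 libraries (log2 change 2.67 ± 0.17, adjusted p = 9.2e-10). Batf3, a leucine zipper factor, had 127, 104 and 101 CPM in the combination libraries, against 24.2, 20.2 and 22.2 CPM in the IL-4 libraries (log2 change 2.27 ± 0.16, adjusted p = 2.7e-09). Every combination library of these 3 genes was above every IL-4 library. Fibronectin Fn1 (1.77 ± 0.20), Pdcd1lg2 and the β-glucan receptor Clec7a (1.40 ± 0.21) rose as well. The mannose receptor Mrc1 had 4234, 2738 and 3305 CPM in the combination libraries, against 4451, 3209 and 3676 CPM in the IL-4 libraries (-0.15 ± 0.12, adjusted p = 0.31). Chil3, a chitinase-like protein, had 114, 105 and 35.9 CPM in the combination libraries, against 105, 123 and 37.5 CPM in the IL-4 libraries (-0.06 ± 0.16, adjusted p = 0.77), and in both genes the groups overlapped. Egr2, which IL-4 induces early, had 176, 62.05 and 101 CPM in the combination libraries, against 79.5, 40.8 and 51.9 CPM in the IL-4 libraries and did not pass the test either (adjusted p = 0.11). Ccl17, Ccl22, Cd209d, Il4i1 and Alox15 did not reach the CPM minimum.

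Set beside IFN-γ alone and untreated cells, the genes of both sides had different levels. Ccl24 averaged 444 ± 245 CPM with both cytokines, 3.89 ± 3.81 CPM with IFN-γ, 75.8 ± 25.1 CPM with IL-4 and 1.92 ± 1.31 CPM untreated (SD, n = 3 each). Pdcd1lg2 averaged 220.3 ± 41.02 CPM with both cytokines, 3.91 ± 2.94 CPM with IFN-γ, 80.9 ± 13.8 CPM with IL-4 and 0.239 ± 0.0626 CPM untreated. Batf3 averaged 111 ± 14.3 CPM with both cytokines, 12.96 ± 6.56 CPM with IFN-γ, 22.2 ± 2.003 CPM with IL-4 and 1.16 ± 0.455 CPM untreated. In each of these 3 genes the combination libraries were higher than any library of the single treatments. Retnla averaged 1.06 ± 0.387 CPM with both cytokines, 0.0162 ± 0.0143 CPM with IFN-γ, 43.98 ± 4.14 CPM with IL-4 and 0 ± 0 CPM untreated, and its untreated libraries held no read. Tmem26 averaged 19.7 ± 2.204 CPM with both cytokines, 0.174 ± 0.112 CPM with IFN-γ, 91.7 ± 11.2 CPM with IL-4 and 0.198 ± 0.134 CPM untreated. For these 2 genes IFN-γ alone gave under 1 CPM, and the combination lay between that and IL-4.

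**Figure D3:**
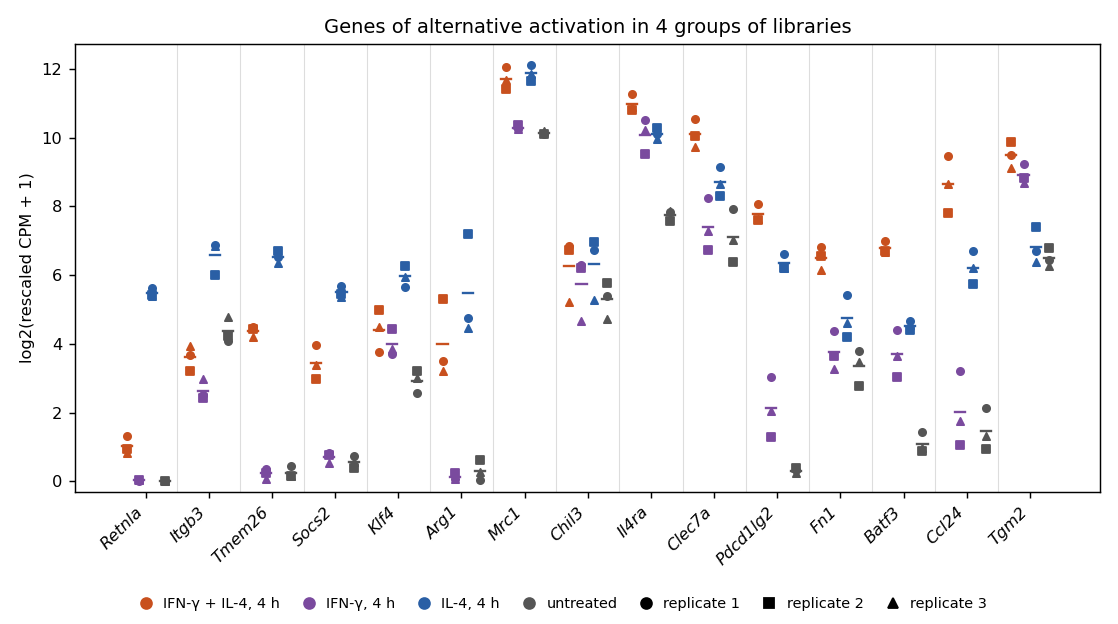
Log2(rescaled CPM + 1) of 15 genes of alternative activation in 3 libraries each of the combination (orange), IFN-γ (purple), IL-4 (blue) and untreated cells (grey); symbols mark replicates and bars the means. From Retnla to Arg1 the combination lies below IL-4 in the mean, Mrc1 and Chil3 overlap, and from Il4ra to Tgm2 the combination lies above IL-4.

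The same division appeared in genes picked as IL-4-induced from other libraries, cells given IL-4 for 2 h against untreated cells, which do not enter the comparison at 4 h. Of 288 genes called there with a log2 change of at least 1 (2.53% of all genes tested), 102 rose (35.4%) and 112 fell (38.9%) when IFN-γ was added at 4 h, beside 25.9% and 30.1% of all genes. Of the 97 that IFN-γ alone also induced at 4 h, 71 rose (73.2%) and 6 fell, with a median of 0.94. Of all genes that IFN-γ alone induced, 93.3% rose. All 16 that IFN-γ alone lowered fell, with a median of -1.12, beside 90.1% of all genes it lowered. Of the other 175, 31 rose and 90 fell, with a median of -0.31. The libraries of IFN-γ alone and untreated cells that sort these genes are not among the 6 compared. The same untreated libraries served to pick the 288 genes and to sort them, so the pick and the sorting are not independent. Of all genes, IFN-γ alone induced 9.19% and lowered 5.17%. On values as deposited the 288 genes gave way to another, larger set when picked anew, of which 120 rose and 264 fell. Picked anew without the replicate block, 62 rose and 75 fell. Hs3st3b1, a heparan sulfate sulfotransferase, was among the rises and averaged 101 ± 21.6 CPM with both cytokines, 9.196 ± 4.605 CPM with IFN-γ, 9.61 ± 0.683 CPM with IL-4 and 1.22 ± 0.471 CPM untreated (log2 change 3.24 ± 0.23, adjusted p = 3.0e-09). Among the falls, Gprc5c, an orphan receptor, averaged 20.3 ± 12.9 CPM with both cytokines, 3.04 ± 1.996 CPM with IFN-γ, 116 ± 60.8 CPM with IL-4 and 14.1 ± 9.75 CPM untreated (log2 change -2.53 ± 0.17, adjusted p = 1.7e-09), and Sla, an adaptor that damps receptor signalling, fell by 2.42. Of 154 genes that IL-4 lowered at 2 h (1.35%), 44 rose and 62 fell. Notch1, the receptor of the Notch pathway, was among the rises, with 232, 144 and 179.8 CPM in the combination libraries, against 21.96, 21.4 and 25.6 CPM in the IL-4 libraries (log2 change 2.93 ± 0.15, adjusted p = 5.9e-11), and the small GTPase Rnd3 rose by 3.05 ± 0.32.

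Most genes that IFN-γ alone changed at 4 h were changed in the same direction when it was added to IL-4. Of the 1046 genes that IFN-γ alone induced at 4 h against untreated cells (called, log2 change of at least 1, 9.19% of all), 976 rose (93.3%) and 7 fell when it was added to IL-4. Their median log2 change was 1.36 with IL-4 and 1.63 without it, the second being the value that picked them. Of the 588 genes it lowered alone (5.17%), 530 fell (90.1%) and 6 rose. Their median was -0.91 with IL-4 and -1.35 without it. The values without IL-4 picked both sets, so the smaller medians with IL-4 do not show a weaker effect. Untreated cells are listed at 0 h, so the effect without IL-4 also spans a time gap whose part was not tested. The difference between the effects with and without IL-4 was called above 0 in 704 genes (6.19%) and below 0 in 985 (8.66%). These counts depend on the libraries: they were 102 and 140 without replicate 3, 283 and 260 without replicate 1, 1543 below 0 without replicate 2, and 84 and 110 without the replicate block. Nos2 averaged 5.14 ± 1.55 CPM with both cytokines, 99.4 ± 50.3 CPM with IFN-γ, 0.183 ± 0.0321 CPM with IL-4 and 0.0362 ± 0.0627 CPM untreated, and its difference was -4.12 ± 0.30 (adjusted p = 2.1e-07). Ptgs2 averaged 33.8 ± 36.5 CPM with both cytokines, 326 ± 306 CPM with IFN-γ, 1.04 ± 0.8997 CPM with IL-4 and 0.465 ± 0.257 CPM untreated (-3.59 ± 0.56, adjusted p = 3.7e-04). Both genes reached a lower level with IL-4 than without it. Socs1 averaged 257 ± 48.4 CPM with both cytokines, 114 ± 13.9 CPM with IFN-γ, 55.00 ± 12.2 CPM with IL-4 and 0.884 ± 0.398 CPM untreated (-3.73 ± 0.27), and Serpina3g averaged 4051 ± 339.7 CPM with both cytokines, 1801 ± 632 CPM with IFN-γ, 93.7 ± 28.6 CPM with IL-4 and 2.598 ± 0.973 CPM untreated (-3.49 ± 0.27). These 2 genes had higher means with both cytokines than with either alone, and IL-4 alone gave them higher means than untreated cells had. Cd40 (-3.10 ± 0.27), Rasgrp1 (-3.58 ± 0.41), Pde4b (-3.09 ± 0.39) and Retnla (-4.48 ± 0.13) completed the 8 largest negative differences. Retnla had no read in untreated cells and could not fall without IL-4, so its difference repeats its change with IL-4 (-4.46). The difference was called below 0 in 12 of 15 NF-κB subunits and inhibitors and in 9 of 18 chemokines. Such a difference can be a smaller rise, no rise or a fall with IL-4. When IFN-γ was added to IL-4, 13 of these 15 and 9 of these 18 genes rose. Among the 34 genes of type I interferon, the difference was called above 0 in 4, and the others were not called. On the positive side, Cebpa averaged 186 ± 20.1 CPM with both cytokines, 26.8 ± 4.55 CPM with IFN-γ, 98.7 ± 35.7 CPM with IL-4 and 69.5 ± 39.2 CPM untreated (2.18 ± 0.31, adjusted p = 2.0e-04). It fell with IFN-γ alone and rose when IFN-γ was added to IL-4, the rise being lost without the block. Lhfpl2, Melk, Cx3cr1, Mtus1, Sik1, Rnf150 and Zfyve28 had the other large positive differences, of 2.18 to 2.95. A positive difference need not be a rise with IL-4. When IFN-γ was added to IL-4, Zfyve28 fell (-0.59), a call lost without the block and in other settings. Cx3cr1 did not pass the test (-0.44 ± 0.31), and the rise of Melk (2.25) was lost without the block.

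**Figure D4:**
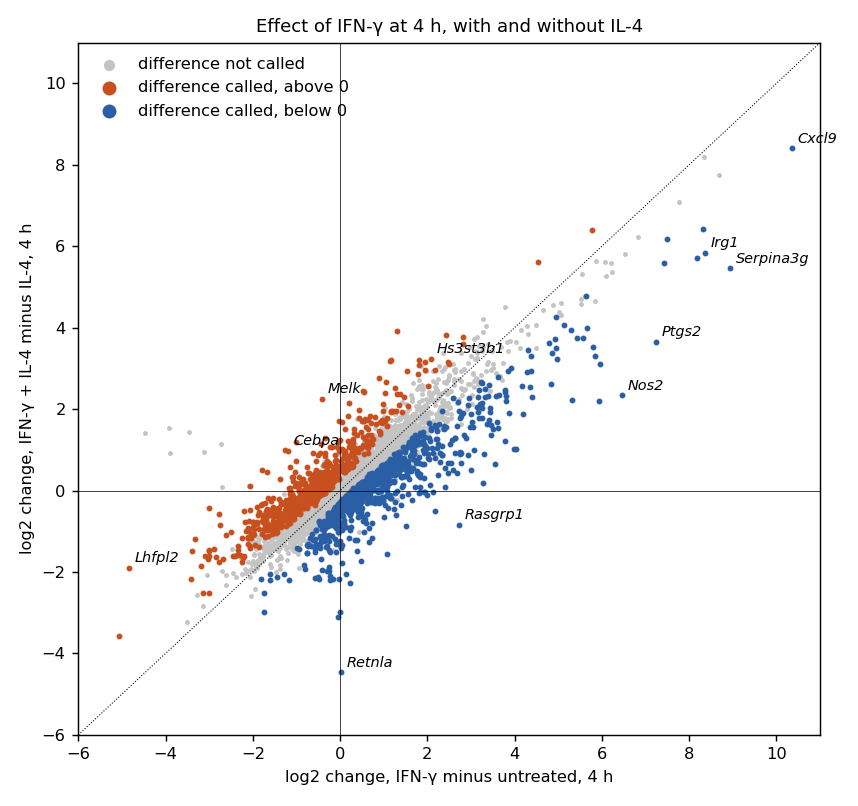
Log2 change when IFN-γ was added to IL-4 at 4 h (y axis) against that with IFN-γ alone (x axis), for 11380 genes. The x axis sets IFN-γ at 4 h against untreated cells, which are listed at 0 h. The dotted line marks equal effects, and colours mark genes whose difference was called above 0 (orange, 704 genes) or below 0 (blue, 985 genes). Nos2 and Ptgs2 lie far below the line and Retnla below 0 on the y axis only.

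The effect of adding IFN-γ grew between 2 h and 4 h. At 2 h, in other libraries, 1853 genes were called higher (16.3%) and 1929 lower (17%), with 484 and 165 at a log2 change of at least 1 (4.25% and 1.45%). The difference between the times was called above 0 in 1305 genes (11.5%) and below 0 in 1192 (10.5%). Without the replicate block these were 225 and 104, and without replicate 3 they were 376 and 193. Guanylate-binding proteins and immunity-related GTPases had 17 of 18 members higher at 2 h with a median of 3.32, beside 4.67 at 4 h, and 13 of 18 had a larger rise at 4 h. MHC class I and antigen processing had 14 of 19 higher at 2 h with a median of 0.67, beside 1.74 at 4 h. For Cxcl10 and Irf1 the difference between the times did not pass the test: the log2 changes of Cxcl10 were 7.52 ± 0.25 at 2 h and 8.19 ± 0.25 at 4 h (difference 0.67 ± 0.36, adjusted p = 0.19), and those of Irf1 were 3.47 ± 0.11 and 3.73 ± 0.11 (difference 0.27 ± 0.15, adjusted p = 0.23). Other genes had small changes at 2 h and large rises at 4 h. The log2 changes of Il12rb1, a chain of the IL-12 receptor, were 0.72 ± 0.12 at 2 h and 4.26 ± 0.12 at 4 h (difference 3.54 ± 0.17, adjusted p = 7.2e-10). Clic5, a chloride channel protein, had 0.07 ± 0.12 and 3.75 ± 0.12, and Ptgs2 had 0.54 ± 0.39 and 3.65 ± 0.39. Upp1, Edn1, which encodes endothelin, Gbp4, Cnn3 and Plau had the other large positive differences, of 2.67 to 3.08. Differences below 0 were of several kinds. The fall of Retnla was larger at 4 h: it changed by -1.25 ± 0.09 at 2 h and -4.46 ± 0.09 at 4 h (difference -3.22 ± 0.13, adjusted p = 2.1e-10). Ahr, the aryl hydrocarbon receptor, changed by 0.74 ± 0.13 at 2 h (adjusted p = 3.1e-04) and -1.21 ± 0.13 at 4 h. Scn3a and Abcd2 fell at both times and by more at 4 h (differences -2.02 ± 0.17 and -1.93 ± 0.25), and Nav2 and Slco2b1 fell at 4 h but did not pass the test at 2 h (differences -2.22 ± 0.26 and -2.19 ± 0.44). Kcnj2, a potassium channel, rose at 2 h (2.43 ± 0.26) and did not pass the test at 4 h (0.46 ± 0.26). Bmf, a BH3-only death gene, rose at 2 h (1.29 ± 0.19) and was called lower at 4 h (-0.49 ± 0.19), a call lost in 9 of the other settings, among them without the block.

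**Figure D5:**
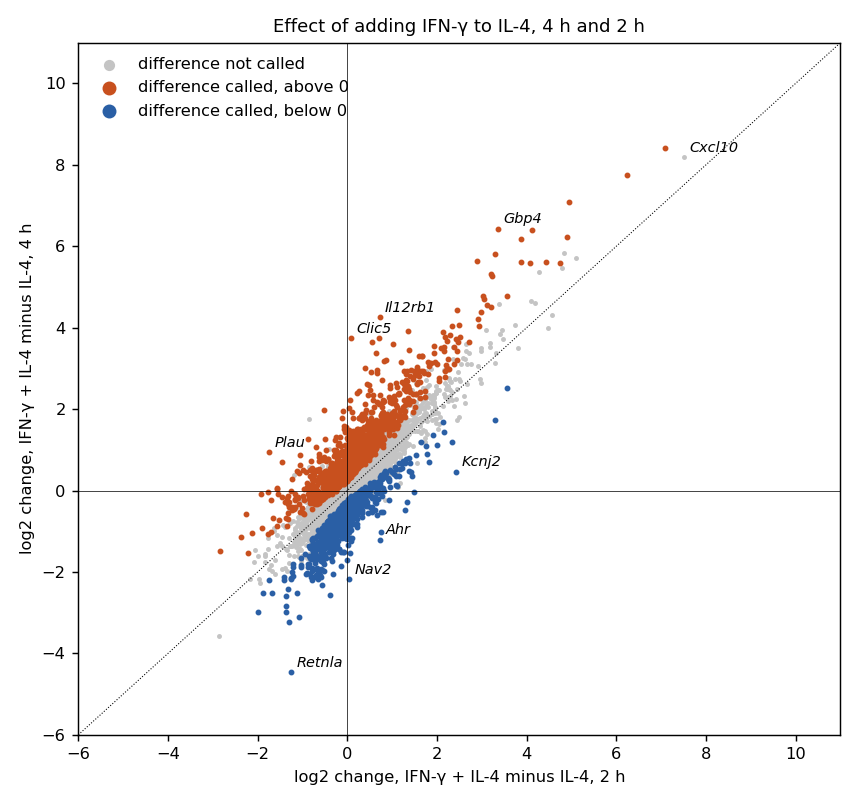
Log2 change when IFN-γ was added to IL-4 at 4 h (y axis) against the same at 2 h (x axis), for 11380 genes from separate libraries; the dotted line marks equal changes, and colours mark genes whose difference was called above 0 (orange, 1305 genes) or below 0 (blue, 1192 genes). Cxcl10 lies near the line, while Clic5 and Il12rb1 lie far above it and Retnla far below.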

How the data were processed

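Per the submitters' processing notes, reads were aligned with TopHat2 2.1.0 to mm10 (GRCm38), counted with HTSeq and processed with edgeR; the settings and the strand of counting are not given in the sources used here. The authors deposited CPM for 24421 genes in 21 poly(A) libraries. All values (100%) were whole reads within 0.01 read; totals were 28920801 to 80028327 reads.

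CPM were divided by median-ratio factors and fitted as log2(CPM + 1) with limma 3.58.1 (R 4.3.3) over all 21 libraries, the replicate number as a block, and an empirical Bayes trend (12 residual degrees of freedom), for genes with CPM of at least 1 in 3 libraries. Adjusted p-values are Benjamini-Hochberg over 11380 genes. After group means were removed, libraries with the same number correlated at 0.539 to 0.951 over 63 pairs and those with different numbers at 0.369 or less, so the numbers pair the samples. Alternatives were edgeR 4.0.16 and DESeq2 1.42.0 on recovered reads, other scalings, pseudocounts and filters, and leaving out libraries. The fit was also run on simulated counts in which far fewer genes changed than were called here, so that run did not test the scaling under changes this widespread.

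Genes were named by rule: 22 anchors; the 15 largest changes in each direction with 5 CPM in the higher group and no overlap; up to 6 called members per direction and 3 others of each list; the 8 largest differences per direction between times and with or without IL-4; and leading IL-4-induced or IL-4-lowered genes. The 15 largest changes also had to have the same sign in all 3 pairs. Members and lists were chosen with earlier results of these data known. Gene coordinates are GENCODE vM21. The 13 mitochondrially encoded genes listed had no row. The 24 libraries with short hairpin RNAs are not analysed here.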

Additional observations from a re-analysis of the deposited data

Results flagged for a closer look

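In 16 genes the effect of IFN-γ at 4 h differed with and without IL-4 by the test of the difference itself, the 8 largest differences in each direction with at least 5 CPM in the higher group. The log2 change with IL-4 minus that without it was negative for Retnla (-4.48), Nos2 (-4.12), Socs1 (-3.73), Ptgs2 (-3.59), Rasgrp1 (-3.58), Serpina3g (-3.49), Cd40 (-3.10) and Pde4b (-3.09). It was positive for Lhfpl2 (2.95), Melk (2.67), Cx3cr1 (2.57), Mtus1 (2.30), Sik1 (2.27), Rnf150 (2.20), Zfyve28 (2.18) and Cebpa (2.18). Rn45s took a large share of reads in 2 of the 3 untreated libraries that enter these differences, and its part in them was not tested. The untreated libraries are listed at 0 h and the others at 4 h, and the part of this time gap was not tested either. Retnla had no read in any untreated library, so its effect without IL-4 could not be a fall.

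In 16 genes the effect of adding IFN-γ to IL-4 differed between 4 h and 2 h, chosen in the same way. The 4 h minus 2 h difference was positive for Clic5 (3.67), Il12rb1 (3.54), Ptgs2 (3.11), Gbp4 (3.08), Upp1 (3.05), Cnn3 (2.75), Edn1 (2.74) and Plau (2.67). It was negative for Retnla (-3.22), Nav2 (-2.22), Slco2b1 (-2.19), Scn3a (-2.02), Kcnj2 (-1.96), Ahr (-1.95), Abcd2 (-1.93) and Bmf (-1.78). Retnla and Ptgs2 stand in both groups of genes.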

How the results depend on the processing

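Without the replicate block, the combination against IL-4 at 4 h gave 1788 genes higher and 1732 lower, the same contrast at 2 h 988 and 698, the difference between times 225 above and 104 below 0, and the difference with and without IL-4 84 and 110; of IL-4-induced genes 62 rose. On CPM as deposited with the block, these were 1317 higher at 4 h, 924 and 977 at 2 h, 282 and 244 between times, 108 above 0 with and without IL-4, and 264 IL-4-induced genes lower; Rrp9 and Slc11a1 turned to -0.028 and -0.00072. Genes lower by log2 1 or more, 354 in the report, numbered 686 as deposited, 545 and 180 with pseudocounts of 0.1 and 5, 582 with edgeR and 572 with DESeq2. Selected at a log2 change of at least 2, 25 of 64 IL-4-induced genes rose and 27 fell. Leaving out a replicate number or library gave 2138 to 2993 genes higher and 2302 to 3475 lower at 4 h, 1151 to 2005 and 918 to 2046 at 2 h, 376 to 1357 and 193 to 1209 between times, and 102 to 848 and 140 to 1543 with and without IL-4; leaving out untreated libraries was added after seeing the data. TMM, edgeR and DESeq2 gave 2929, 2964 and 3059 genes higher and 3459, 3515 and 3452 lower at 4 h. Of 345 named genes 271 were called, and 88 of these lost the call somewhere, 85 without the block and 46 in another setting. With a pseudocount of 5, 36 named changes were over 1.5 times smaller, and with 0.1, 12 were over 1.5 times larger. The cause was not tested. With 3 libraries a group and no stated origin of the replicates, p-values cover the spread among these libraries, and genes under 1 CPM in most libraries were not measured.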

Other observations

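Some genes outside the lists of pathways also changed, and they were chosen after their values were seen. Lck, a kinase best known from T cells, had 14.5, 16.6 and 7.34 CPM in the combination libraries, against 0.256, 0.293 and 0.118 CPM in the IL-4 libraries, and it was called higher (log2 change 3.43, adjusted p = 3.1e-10). The T cell markers Cd3e and Cd3g had 0.0283 CPM or less in each of the 6 libraries, and Cd4 did not pass the test (0.09). Kdr, a receptor for vascular endothelial growth factor, had 2.999, 6.76 and 2.82 CPM in the combination libraries, against 0.913, 1.502 and 0.512 CPM in the IL-4 libraries and rose (1.34), while Pecam1, which macrophages and endothelial cells share, had 5.97, 6.31 and 4.74 CPM in the combination libraries, against 17.5, 11.1 and 16.7 CPM in the IL-4 libraries and fell (-1.25). The third endothelial marker, Cdh5, was under 0.5 CPM in each of the 6 libraries.

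The order of the replicates differed between gene groups. In the combination, replicate 2 was the lowest library for 17 of 18 guanylate-binding proteins and immunity-related GTPases, and replicate 1 the highest for 23 of 25 genes of classical activation. For genes of type I interferon, replicate 2 was the highest combination library in 27 of 34 and the highest IL-4 library in 32 of 34.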
